A study of Bombyx mori with 12 samples.

Results

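The complex of corpora cardiaca and corpora allata (CC-CA) of the silkworm Bombyx mori was set against the prothoracic gland, the other large endocrine gland of the larva. The comparison used 3 of the 12 arrays of the series. These were 2 CC-CA arrays, replicate 1 and replicate 2, and 1 prothoracic gland array. They were chosen by their labels alone, and all came from day 2 of the 4th larval instar. The animals of both groups were untreated larvae of the commercial strain Kinsyu x Showa, reared on mulberry leaves at 25 °C. The labels call the CC-CA arrays replicates, the prothoracic gland had no replicate, and the sources used here do not give how many larvae were pooled for an array or whether the replicates came from separate dissections. The p-values therefore measure only the spread between those arrays, which may be technical. Total RNA was amplified linearly, labelled with the dye Cy3 and hybridised in 1 colour to a custom Agilent oligonucleotide array. Epidermis, brain, midgut, salivary gland, fat body and Malpighian tubule of the same day, and testis and ovary of day 10 of the 5th instar, had 1 array each and served to find transcripts that stood out in both glands. A further CC-CA array came from day 4 of the 5th instar.

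The corpora allata are paired glands behind the brain that make juvenile hormone, the lipid hormone that keeps a moult larval. The corpora cardiaca lie beside them, make adipokinetic hormone and release hormones that reach them along axons of brain neurons. The prothoracic glands make the ecdysteroid that sets off each moult, and brain peptides switch them on or hold them back. Juvenile hormone and ecdysteroid together decide what kind of moult follows.

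A level is log2 of the processed spot intensity minus log2 of the 75th percentile of the same array, so a level of 0 equals that percentile and levels of different probes cannot be compared. The 75th percentile of the processed intensity was 4427 and 4589 on the CC-CA arrays and 2899 on the prothoracic gland array. The scanner software marked 70.2% and 73.8% of spots well above background in CC-CA and 63.9% in prothoracic gland. Of 42340 probes with a value on every array, 30120 were tested because they were well above background on both CC-CA arrays or on the prothoracic gland array. Of these, 25972 were well above background on all 3 arrays, 3166 on the CC-CA pair but not in prothoracic gland, and 982 in prothoracic gland but not on both CC-CA arrays. Most sequences carried a clone or gene model identifier, and 349 genes had a name.

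The labels were first set against defining markers. BmJHAMT, the methyltransferase of the last steps of juvenile hormone synthesis, stood at 2.39 and 2.08 in CC-CA and at -8.0 in prothoracic gland. The adipokinetic hormone gene AKH1 stood at 5.38 and 5.22 in CC-CA and at -7.96 in prothoracic gland. Both were bright on both CC-CA arrays and not well above background in prothoracic gland. The enzymes of ecdysteroid synthesis carried no name on the array, so the label of the prothoracic gland was not checked against a marker of its own. The markers AKHR for fat body, JHEH4 for midgut and BmorCPR33 for salivary gland were not well above background on any of the 3 arrays. The other salivary gland marker, jhbp-brp1649, was well above background on all 3 at its brightest probe. The summed signal of both salivary markers relative to each array's 75th percentile was 0.507 and 0.609 in CC-CA, 0.106 in prothoracic gland and 16.6 in salivary gland. The Malpighian tubule marker DHR was also well above background on all 3 at its brightest probe, with a signal of 0.0527 and 0.0286 in CC-CA, 0.0468 in prothoracic gland and 25.3 in Malpighian tubule. In prothoracic gland no other tested probe of jhbp-brp1649 or DHR was well above background. The part of these tissues in the differences was not tested.

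More probes were higher than lower in CC-CA than in prothoracic gland. A call required a log2 difference, CC-CA mean minus prothoracic gland, of at least 1 in size and a limma p-value below 0.05 after Benjamini-Hochberg adjustment over all tested probes. By this rule 5947 probes were higher in CC-CA, which is 19.7% of the probes tested, and 2676 were lower, which is 8.88%. The higher probes made up 69.0% of the called ones, yet the median difference over all tested probes was -0.24. Among the called probes, 2764 of the higher ones were not well above background in prothoracic gland, and 431 of the lower ones were not so on either CC-CA array. A difference of at least 16-fold was fitted for 2141 of the higher and 196 of the lower probes. The median thus lay slightly below 0, while the largest differences were mostly above it. In whole glands, fewer cells of a type and less RNA per cell cannot be told apart.

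**Figure D1:**
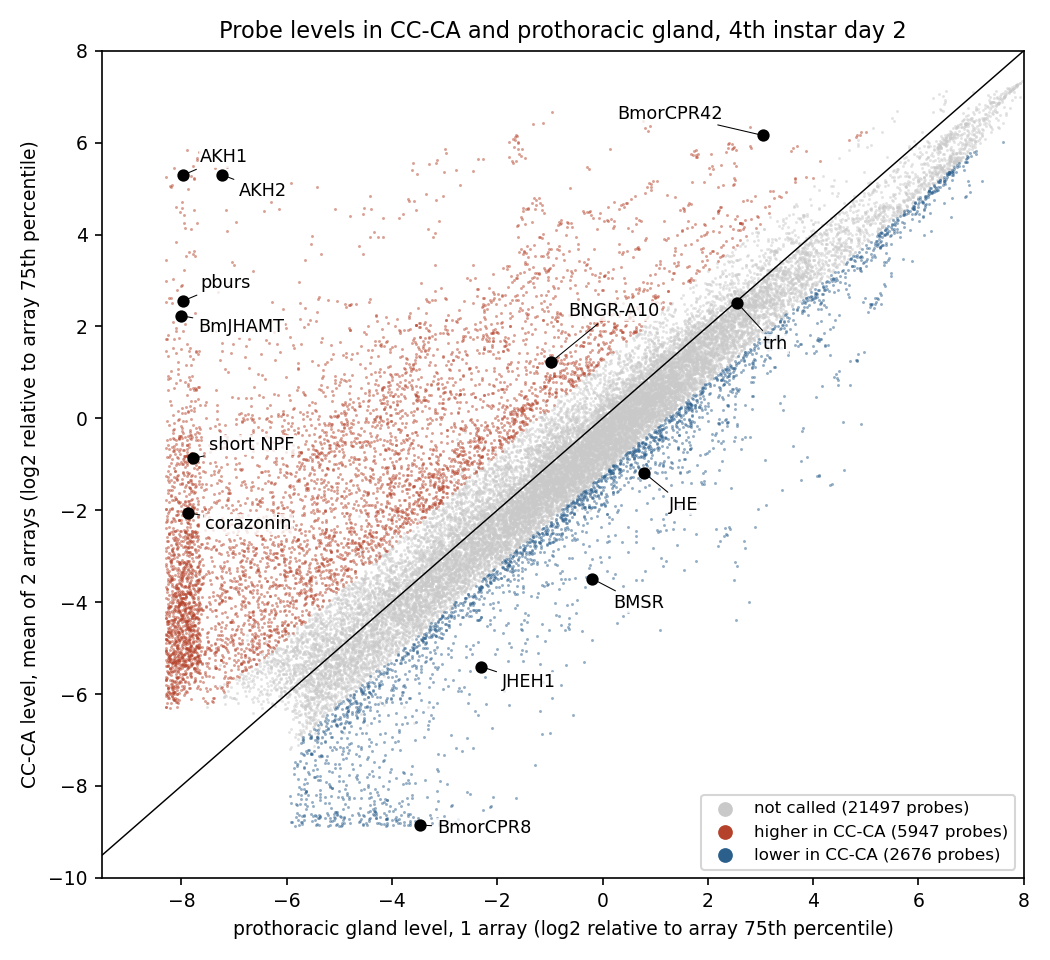
Levels of the 30120 tested probes in CC-CA (vertical axis, mean of 2 arrays) and prothoracic gland (horizontal axis, 1 array), as log2 relative to the array's 75th percentile, with the 5947 probes called higher in CC-CA in red, the 2676 called lower in blue and named genes as black points. AKH1, AKH2, BmJHAMT and pburs stand at the far left above a level of 2 in CC-CA, while BMSR, JHE and JHEH1 lie below the line of equal levels.

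The spread in this fit came from the CC-CA pair alone, with 1 residual degree of freedom and a prior worth 14.1, and the prothoracic gland array was assumed to vary like that pair. CC-CA replicate 1 and prothoracic gland shared slide 1, and CC-CA replicate 2 was on slide 2. Within slide 1, 6713 probes were at least 2-fold higher and 4132 at least 2-fold lower in CC-CA. With replicate 2, across slides, the numbers were 6590 and 5618. All 8623 called probes lay on the same side of prothoracic gland with either replicate. The split of the calls depended on how the arrays were scaled to each other. In the values of the deposited processed table, 38.4% of called probes were higher in CC-CA, and after quantile normalisation 55.7% were, with the median over all tested probes shifted by -0.46 and -0.18. Taking the 75th percentile over probes detected on all 12 arrays shifted it by 0.16. Direction is therefore given for genes whose difference is large against these shifts, or the exception is named.

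Of the named genes, 3 hormone genes and the gene of a juvenile hormone enzyme had the largest bounds on their rise in CC-CA. BmJHAMT was at least 292-fold higher in CC-CA, with a fitted log2 difference of 10.23 ± 0.44 (SE, adjusted p = 1.4e-10). All 4 of its probes were called. A bound of this kind sets the CC-CA mean against the lowest signal well above background, or the probe's own signal if that is higher, in the gland where the probe was dim. AKH1 was at least 2441-fold higher in CC-CA (adjusted p = 1.43e-11). The second adipokinetic hormone gene, AKH2, stood at 5.06 and 5.53 in CC-CA and at -7.22 in prothoracic gland, at least 2444-fold higher in CC-CA (adjusted p = 1.99e-11). The gene pburs encodes the subunit with which bursicon, a tanning hormone, pairs. Its level was 2.44 and 2.67 in CC-CA and -7.96 in prothoracic gland. It was at least 366-fold higher in CC-CA (adjusted p = 9.08e-11). For each of these 4 genes both CC-CA arrays were close together and no probe was well above background in prothoracic gland. BmJHAMT stood lower, at -1.55, on the 5th instar CC-CA array, and with that array pooled into the CC-CA group its adjusted p was 0.0523.

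Of 42 neuropeptide genes on the array 18 were tested, and 14 of them were higher in CC-CA, 1 was lower and 3 were not called. The share called higher was 77.8%, against 19.7% of all tested probes, and the median difference was 3.25, against -0.24. In 11 of the 14 the prothoracic gland was not well above background, and a gene could enter the test through CC-CA alone. The other 24 genes did not pass the filter in either gland at their brightest probe, the probe that stands for a gene here.

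Short neuropeptide F, a peptide that acts on feeding and on the corpora allata, stood at -0.49 and -1.25 in CC-CA and at -7.78 in prothoracic gland. It was at least 33.9-fold higher in CC-CA (adjusted p = 1.57e-08). Corazonin, a neurohormone of brain neurons that project to the corpora cardiaca, stood at -2.08 and -2.03 in CC-CA and at -7.87 in prothoracic gland, at least 14.9-fold higher (adjusted p = 4.47e-08). In brain, corazonin stood at 3.20, well over the CC-CA, whereas short neuropeptide F stood at -0.35, near the CC-CA level. The CHH peptide, of the family of the crustacean hyperglycaemic hormone, stood at -2.63 and -2.44 in CC-CA and at -5.49 in prothoracic gland (difference 2.96, adjusted p = 4.95e-05). NPLP4-like, a precursor of neuropeptide-like peptides, stood at 4.54 and 4.63 in CC-CA and at 2.26 in prothoracic gland (difference 2.33, adjusted p = 0.000502). These 2 transcripts were well above background in both glands, and both CC-CA arrays were above the prothoracic gland.

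Diuretic hormone 1, diuretic hormone 2, the region common to the diuretic hormone transcripts, allatostatin A, bursicon and the polycistronic peptide were also higher in CC-CA, at levels between -4.86 and -3.20. They were not well above background in prothoracic gland. Their bounds ran from at least 2.40-fold for allatostatin A to at least 5.02-fold for the diuretic hormone common region. With normexp background correction allatostatin A, bursicon, diuretic hormone 2 and the polycistronic peptide were no longer called.

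Myosuppressin, a peptide that quiets gut muscle and, in the silkworm, the prothoracic glands, stood at -2.84 and -2.50 in CC-CA and at -4.05 in prothoracic gland. The difference was 1.39 (adjusted p = 0.0266), and it was no longer called in the deposited table, after quantile normalisation or with normexp correction. The other myosuppressin probe, not well above background in prothoracic gland, had a larger fitted difference, 5.02, and was called higher. Pigment-dispersing factor, PDF, was the lower one. It stood at -7.49 and -9.24 in CC-CA, not well above background, and at -5.92 in prothoracic gland, at least 1.51-fold lower in CC-CA (adjusted p = 0.00406), and was no longer called with normexp correction or a floor under dim signals. SIFamide stood at -5.77 and -5.07 in CC-CA and -5.03 in prothoracic gland, and orcokinin at -4.49 and -4.80 in CC-CA and -3.70 in prothoracic gland. Neither passed the test, nor did the ITG-containing peptide. For SIFamide and the ITG-containing peptide a second probe was called higher in CC-CA, so their probes disagreed.

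Many of these peptides are also made in the brain, to which the CC-CA is attached. In 8 of the 14 higher genes, another tissue stood at least 4-fold above the CC-CA mean. Of the 6 marker genes for brain neurons, 3 were well above background on each CC-CA array and 3 in prothoracic gland. Eclosion hormone and sulfakinin were not well above background on any of the 3 arrays, while eclosion hormone stood at 3.53 in brain. Summed over the 6, the signal relative to each array's 75th percentile was 0.312 and 0.316 in CC-CA, 0.136 in prothoracic gland and 24.8 in brain. Most of the CC-CA sum was corazonin, at -2.08 and -2.03, which is itself among the 14 higher genes. Orcokinin, SIFamide and PDF went the other way, lower on both CC-CA arrays than in prothoracic gland at their brightest probes. Their part in the peptide differences was not tested.

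**Figure D2:**
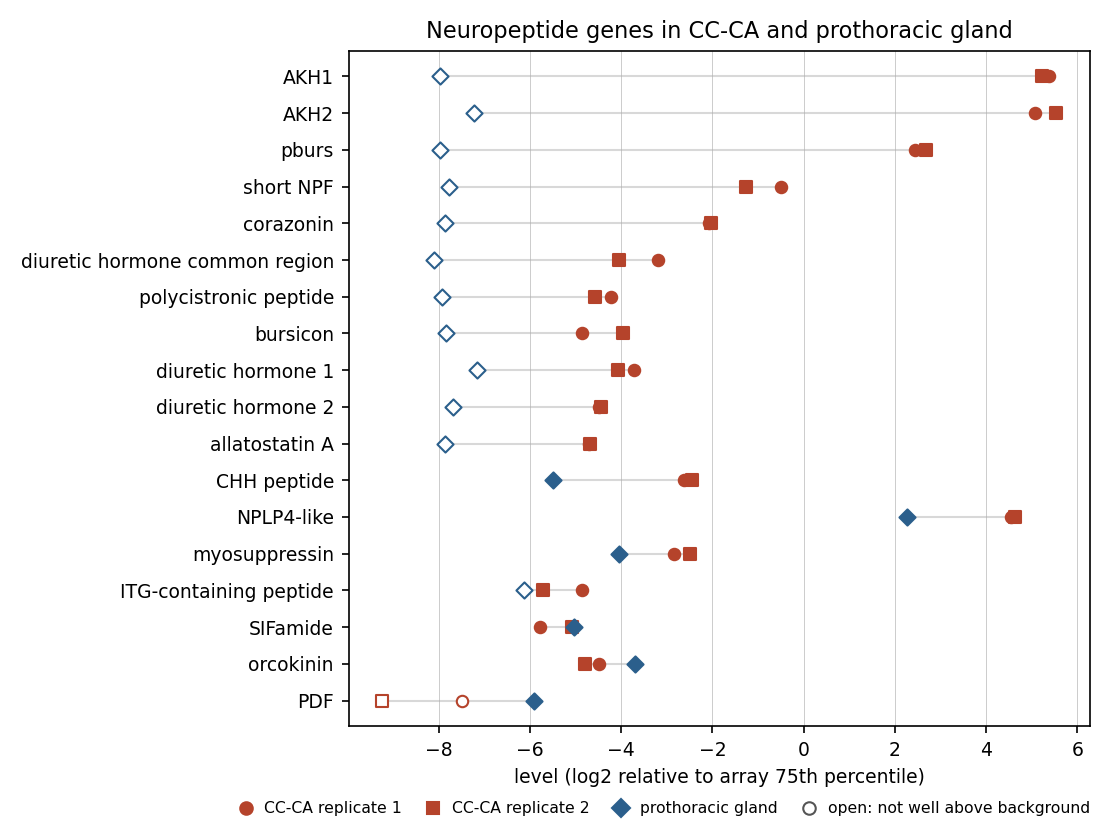
Levels of the 18 tested neuropeptide genes (log2 relative to the array's 75th percentile) on the CC-CA arrays (red) and the prothoracic gland array (blue), ordered by difference, with open symbols where the probe was not well above background. AKH1, AKH2 and pburs have levels above 2 in CC-CA and below -7 in prothoracic gland, and PDF alone is called lower in CC-CA.

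Genes around juvenile hormone action differed in both directions. The esterase JHE, the epoxide hydrolases JHEH0 and JHEH1 and the response gene Kr-h1 were lower in CC-CA, while 5 of 6 tested genes of binding proteins were higher. Juvenile hormone esterase, JHE, which cleaves the hormone's ester, stood at -1.23 and -1.13 in CC-CA and at 0.78 in prothoracic gland. It was 3.90-fold lower in CC-CA, a log2 difference of -1.96 ± 0.43 (SE, adjusted p = 0.00223), and all 3 tested probes were called. Of the epoxide hydrolases, which open the hormone's epoxide ring, JHEH1 stood at -5.22 and -5.58 in CC-CA and at -2.31 in prothoracic gland. Its difference was -3.09 (adjusted p = 3.58e-05). JHEH0 stood at 0.10 and -0.27 in CC-CA and at 1.75 in prothoracic gland, a difference of -1.83 (adjusted p = 0.00447). For JHE and JHEH1 the prothoracic gland had the highest level of the 12 arrays, while JHEH0 was higher in fat body, at 3.70.

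JHEH2 went the other way, at -5.46 and -6.33 in CC-CA and -8.17 in prothoracic gland, where it was not well above background. Its bound was at least 1.04-fold (adjusted p = 0.00136), and with a floor under dim signals or with normexp correction it was no longer called. JHEH3 stood at -3.30 and -3.28 in CC-CA and -3.11 in prothoracic gland, and JHEH5 at -1.39 and -1.80 in CC-CA and -1.32 in prothoracic gland. Neither of these passed the test. Of the esterase-related genes JHE-r3, JHE-r4A and JHE-r5AL none was called at its brightest probe, at differences of -1.18, -0.43 and -0.30, though the other 2 tested probes of JHE-r3 were called lower in CC-CA. JHE-r2 did not pass the filter at its brightest probe. Another JHE-r2 probe, well above background in prothoracic gland only, was called lower in CC-CA at -2.74.

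Kr-h1, the transcription factor that juvenile hormone induces in its target cells, stood at -2.83 and -2.92 in CC-CA and at -1.65 in prothoracic gland. The difference of -1.22 ± 0.43 (SE) had an adjusted p of 0.0464, close to the threshold. The prothoracic gland had the highest Kr-h1 level of the 12 arrays. The call was lost at the same sign in 6 of the 12 alternatives that tested it, normexp correction and the 75th percentile over probes detected on all arrays among them.

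Among the genes of juvenile hormone binding proteins, which carry or bind the hormone, jhbp-an0128 stood at 2.39 and 1.65 in CC-CA and at -3.54 in prothoracic gland, a difference of 5.56 (adjusted p = 1.36e-07). For jhbp-brp2095 the levels were 2.40 and 1.77 in CC-CA and -3.47 in prothoracic gland, a difference of 5.55 (adjusted p = 1.18e-07). Both were far above prothoracic gland on either CC-CA array, but jhbp-an0128 was higher still in salivary gland, at 5.38, and jhbp-brp2095 in epidermis, at 4.83. The gene jhbp-brp1649 differed by 2.43 at its brightest probe, while its other 3 probes, not well above background in prothoracic gland, had larger fitted differences, the smallest of them 6.60. The genes jhbp-an0921 and jhbp-an147 differed by 2.43 and 1.69, the first of them at least 1.48-fold higher in CC-CA as a bound and not called with normexp correction. The call of jhbp-an147 was lost after quantile normalisation and without a filter on dim probes. The gene jhbp-wds30639 stood at 3.30 and 3.29 in CC-CA and at 3.39 in prothoracic gland and was not called, while its second probe was called lower in CC-CA at -3.10. In all, 12 of 16 genes of juvenile hormone breakdown and transport were tested. Of these 6 were higher and 3 lower in CC-CA, with a median difference of 0.80 against -0.24 over all tested probes. The shares were 50% higher and 25% lower, against 19.7% and 8.88% of all tested probes. With the 5th instar CC-CA array pooled into the CC-CA group, 0 were called higher and 0 lower. All 6 higher genes were at least 4-fold above the CC-CA mean in another tissue, and none of the 3 lower genes was so relative to prothoracic gland.

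**Figure D3:**
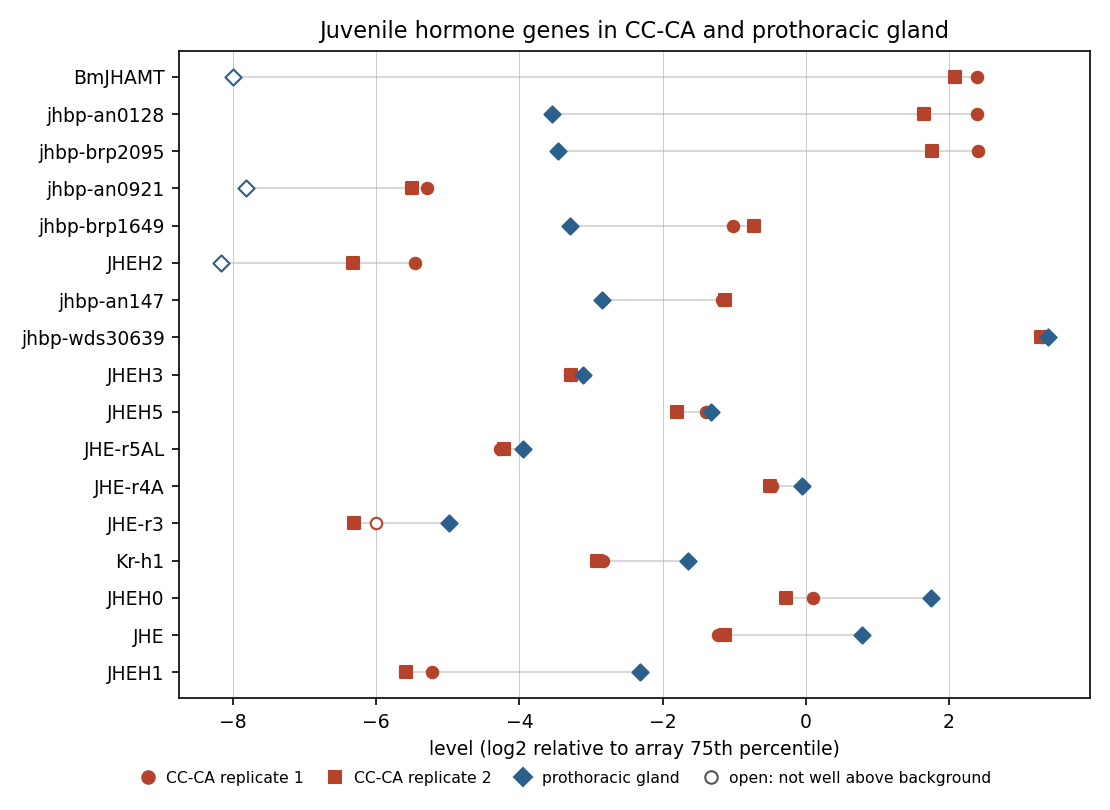
Levels of the tested juvenile hormone genes (log2 relative to the array's 75th percentile) on the CC-CA arrays (red) and the prothoracic gland array (blue), ordered by difference, with open symbols where the probe was not well above background. BmJHAMT and 5 binding protein genes have both CC-CA arrays to the right of prothoracic gland, and Kr-h1, JHEH0, JHE and JHEH1 have both to the left.

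Receptor genes split between the glands. Of 52 genes for hormone and neuropeptide receptors 21 were tested, 8 of them higher in CC-CA, 4 lower and 9 not called. Their median difference was 0.94, against -0.24 over all tested probes. The shares, 38.1% higher and 19.05% lower, compare with 19.7% and 8.88% of all tested probes. In 5 of the 8 higher genes the prothoracic gland was not well above background, and 2 of the 4 lower genes were not so on either CC-CA array. A gene could enter the test through the gland where it was bright alone, so these shares depend in part on the filter.

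The receptor of myosuppressin, BMSR, stood at -3.48 and -3.51 in CC-CA and at -0.19 in prothoracic gland. It was 9.85-fold lower in CC-CA, a log2 difference of -3.30 ± 0.43 (SE, adjusted p = 1.52e-05), and all 4 probes were called. The other probes differed by -3.30, -1.75 and -1.59, so the size of the fall depended on the probe. The prothoracic gland level was the highest of the 12 arrays, with midgut next at -0.62. Peptide and receptor thus differed in opposite directions, myosuppressin higher in CC-CA and BMSR lower, with the reserve on the peptide given above. The sex peptide receptor gene SPR stood at -6.54 and -7.73 in CC-CA, not well above background, and at -4.65 in prothoracic gland. It was at least 3.66-fold lower in CC-CA (adjusted p = 0.00113). BNGR-A3 and BNGR-A4, orphan-series G protein-coupled receptors, were lower in CC-CA at differences of -1.59 and -1.21 and adjusted p of 0.0342 and 0.0487. BNGR-A3 was not well above background in CC-CA and BNGR-A4 on 1 of the 2 arrays, and neither was called with normexp correction.

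The receptor genes higher in CC-CA included BNGR-A10, a silkworm receptor for short neuropeptide F. It stood at 1.19 and 1.27 in CC-CA and at -0.97 in prothoracic gland, 4.61-fold higher in CC-CA (adjusted p = 0.000832). Its other 3 probes had larger log2 differences, from 4.51 to 4.82. Brain stood at 1.72. BNGR-A1 stood at 0.04 and -1.09 in CC-CA and at -4.60 in prothoracic gland, a difference of 4.08 (adjusted p = 7.39e-06). BNGR-A2 stood at -2.52 on both CC-CA arrays and at -5.36 in prothoracic gland, a difference of 2.84 (adjusted p = 7.14e-05). For these 3 genes all 4 probes were called, and both glands were well above background at the brightest. BNGR-A2 had its highest level outside the CC-CA in epidermis, at -4.82.

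The diapause hormone receptor gene DpHR stood at -2.68 and -2.65 in CC-CA and at -7.78 in prothoracic gland, at least 9.76-fold higher in CC-CA (adjusted p = 1.64e-07). Salivary gland stood higher still, at 1.86. BNGR-A6-A, BNGR-A11 and BNGR-A23 were at least 3.85-fold, 3.0-fold and 1.5-fold higher in CC-CA, and the last 2 were not called with normexp correction. BNGR-A17 was called at a difference of 2.07 with no bound above 1, and its sign turned with a floor under dim signals, to -0.13.

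Among the receptor genes not called, BNGR-A27 stood at 0.16 and -0.06 in CC-CA and at 0.14 in prothoracic gland. The remaining differences ran from -1.18 for BNGR-A16 to 1.33 for BNGR-B3. BNGR-A16, the silkworm's allatotropin receptor, stood at -5.13 and -5.80 in CC-CA and -4.28 in prothoracic gland at its brightest probe, while its other 2 tested probes were called higher in CC-CA. The diuretic hormone receptor DHR behaved alike, with -4.25 and -5.13 in CC-CA and -4.42 in prothoracic gland at the brightest probe and 3 other probes called higher. For BAR 1 further probe was called higher and 1 lower. These genes have no settled direction here.

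**Figure D4:**
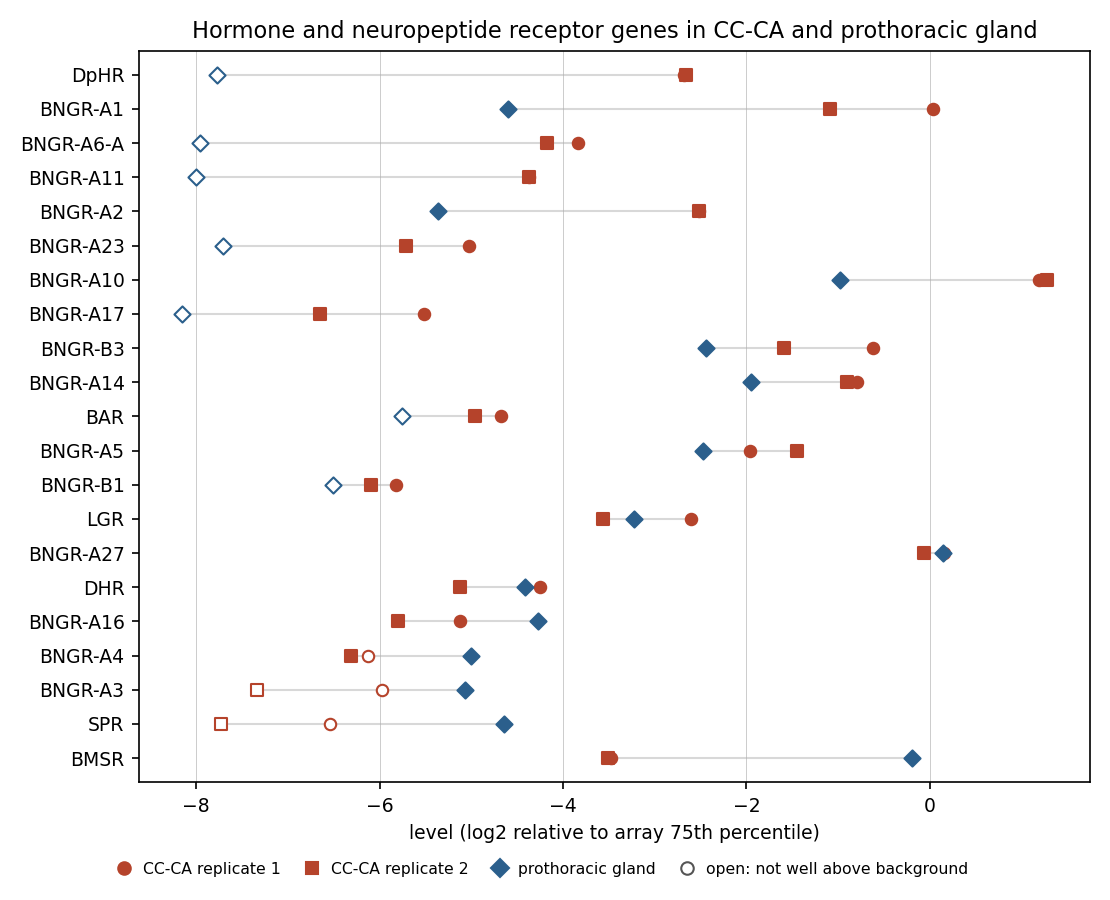
Levels of the 21 tested receptor genes (log2 relative to the array's 75th percentile) on the CC-CA arrays (red) and the prothoracic gland array (blue), ordered by difference, with open symbols where the probe was not well above background. BMSR lies at the bottom, with prothoracic gland at -0.19 and the CC-CA arrays at -3.48 and -3.51, and for BNGR-A10 both CC-CA arrays lie right of prothoracic gland at -0.97.

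Of 220 cuticular protein genes on the array 78 were tested, 60 of them higher in CC-CA, 5 lower and 13 not called. The shares were 76.9% higher and 6.41% lower, against 19.7% and 8.88% of all tested probes, and the median difference was 3.25 against -0.24. The higher genes comprised 21 of 27 tested genes with the RR-1 form of the chitin-binding Rebers-Riddiford motif, 10 of 16 with the RR-2 form, 10 of 13 glycine-rich genes and 16 of 19 hypothetical cuticular genes. The CPF-type genes gave 2 of 2, and the tweedle genes 1 of 1. The prothoracic gland was well above background for 35 of the 60 and not for the other 25. None of the 5 lower genes was so on either CC-CA array. As for the peptides and receptors, a gene could enter the test through its bright gland alone. These shares therefore depend in part on the filter.

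BmorCPR90 stood at 4.36 and -0.91 in CC-CA and at -6.72 in prothoracic gland, at least 206-fold higher in CC-CA (adjusted p = 5.25e-05). The CC-CA arrays differed widely here, so the bound, taken on their mean, does not hold for replicate 2 alone. BmorCPH28 stood at 2.44 and 1.5 in CC-CA and at -6.01 in prothoracic gland, at least 243-fold higher (adjusted p = 4.8e-09). BmorCPG5 stood at 0.04 and -0.20 in CC-CA and at -6.63 in prothoracic gland, at least 58.9-fold higher (adjusted p = 1.4e-08). In both of these the CC-CA arrays were close to each other and far above the prothoracic gland.

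BmorCPH21 stood at 0.98 and -4.48 in CC-CA and at -8.11 in prothoracic gland, where it was not well above background. It was at least 18.5-fold higher in CC-CA (adjusted p = 0.00109), and its CC-CA arrays lay far apart. The bound of BmorCPH21 also rests on the CC-CA mean and does not hold for replicate 2 alone. With robust moderation BmorCPH21 and BmorCPR90 were no longer called. BmorCPH21 stood high in ovary, at 5.41. BmorCPR34 and BmorCPG10 had differences of 5.79 and 5.48. BmorCPR56, not well above background in prothoracic gland, was at least 21.4-fold higher in CC-CA. For each of these 3 genes the epidermis stood above the CC-CA.

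The 5 cuticular genes lower in CC-CA were BmorCPR8, BmorCPR106, BmorCPR96, BmorCPR124 and BmorCPG8. BmorCPR8 stood at -8.47 and -9.24 in CC-CA, not well above background, and at -3.46 in prothoracic gland, at least 8.33-fold lower in CC-CA (adjusted p = 1.97e-07). The bounds of the others ran from 1.84-fold to 7.76-fold. BmorCPG8 was no longer called with normexp correction or a floor under dim signals, nor BmorCPR106 with robust moderation. None of the 5 was well above background on either CC-CA array, and each was measured by 1 tested probe.

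Outside the glands, the cuticular transcripts higher in CC-CA were mostly brightest in epidermis. Of the 60, 45 had their highest level outside the glands in epidermis and 7 in ovary. Of the 5 lower cuticular genes, 2 had it in epidermis. The share over all 220 genes was not taken, so these counts are only described. In 44 of the 60 another tissue stood at least 4-fold above the CC-CA mean. Of the 220 genes, 83 and 82 were well above background on the CC-CA arrays and 51 in prothoracic gland. Summed over the 220, the signal relative to each array's 75th percentile was 374 and 365 in CC-CA, 25.6 in prothoracic gland, 3620 in epidermis, 412 in fat body and 12.5 in brain. Over 43 genes well above background in both glands and in epidermis, the median log2 difference from epidermis was -2.69 in CC-CA and -6.68 in prothoracic gland. For single genes that of CC-CA ran from -10.2 to 5.94. Of the 2 epidermis markers, BmorCPR40 was not well above background on any of the 3 arrays, and BmorCPG13 was so on both CC-CA arrays, at -4.16 and -3.08, but not in prothoracic gland. The part of epidermal cells in these differences was not tested. On the 5th instar CC-CA array many of these genes were dim, and with that array pooled into the CC-CA group 11 cuticular genes stayed called as higher and 3 as lower.

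Few other named genes differed. BmK15 stood at -1.24 and -2.09 in CC-CA and at -8.19 in prothoracic gland, at least 19.6-fold higher in CC-CA (adjusted p = 3.37e-08), with brain at 3.49. Cycb, whose product cyclin B drives entry into mitosis, stood at -2.67 and -2.56 in CC-CA and at -0.82 in prothoracic gland, a difference of -1.79 (adjusted p = 0.00462). The gene trh, which in the fruit fly patterns the tracheae, stood at 2.63 and 2.39 in CC-CA and at 2.56 in prothoracic gland. It was not called.

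Among sequences without a gene name, clone fcaL-P46_pT_O04_RevCom had the largest rise of the probes that every one of the 3 arrays measured well above background. Its level stood at 5.06 and 5.02 in CC-CA and at -5.42 in prothoracic gland, 1404-fold higher in CC-CA (adjusted p = 9.08e-11). Clone caL-P14_T7_P21 followed, at 4.79 and 4.32 in CC-CA and -5.07 in prothoracic gland. Neither reached a level of -3 in any of the 8 other tissues, and both stood above 4 in the 5th instar CC-CA. The largest fall was that of clone fprw16C09, at -3.97 and -4.80 in CC-CA and 2.53 in prothoracic gland, a difference of -6.91 (adjusted p = 1.77e-08). Gene model BGIBMGA012894 had a difference of -6.77. Both of these also stood high in Malpighian tubule, at 2.38 and 2.69.

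A probe called higher in CC-CA cannot have its highest level in prothoracic gland, nor one called lower in the 4th instar CC-CA, so the shares by tissue are only described. Of the probes higher in CC-CA, 20.2% were highest in epidermis, 14.5% in fat body, 12.9% in the 4th instar CC-CA and 12.8% in the 5th instar CC-CA. Of the probes lower in CC-CA, 42.2% were highest in prothoracic gland, 19.2% in fat body and 3.03% in epidermis. Of the probes not called, 5.11% were highest in epidermis, 12.6% in fat body and 5.26% in prothoracic gland.

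Transcripts that both glands held above every other tissue were rare. A probe counted where the CC-CA mean and the prothoracic gland each exceeded all 8 other tissues by at least 2-fold and the largest of the 16 limma p-values, adjusted over all probes, was below 0.05. Of 25972 probes well above background on all 3 arrays, 25 counted, or 0.0963%, from 18 sequence names. None of the 349 named genes was among them. A margin of at least 2-fold alone, with no test, was found for 44 probes. The 25 had margins over the next tissue from 2.15 to 6.20, with a median of 3.73. In 18 of them no other tissue was well above background, so that their margins depend on dim signals. Against the lowest signal well above background, 20 of the 25 kept a margin of at least 2-fold.

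These 25 probes were seldom alike in the glands. In 13 the CC-CA was higher, by 4.59 to 6.52 with a median of 5.88, and all 13 were called between the glands. In 12 the prothoracic gland was higher, with differences down to -6.01 and a median of -5.11, and 10 of these were called as lower in CC-CA. Glands within 2-fold of each other were found for 1 of the 25. The set thus held mainly probes that were bright in one gland and weaker, though still above the other tissues, in the other. The 13 probes carried 8 sequence names and the 12 carried 10. Among the 12, the names fprWP23_F_P22_AK28, fprWP23_F_P22_AK289330 and fprW23P22 appear to share a clone, so the names are not all separate transcripts.

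Clone fprWP23_F_P22_AK28 had the largest margin, at -0.61 and -1.65 in CC-CA and 4.58 in prothoracic gland, with fat body next at -7.33. Both glands were at least 14.8-fold above every other tissue, and the 5th instar CC-CA stood at -4.51. Clone fcaL-P47_pT_N17_RevCom was the next, at 4.93 and 4.58 in CC-CA and -1.26 in prothoracic gland, at least 13.6-fold above every other tissue. On the 5th instar CC-CA array it stood at 4.92.

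Over the 13 probes brighter in CC-CA, the 5th instar CC-CA differed from the 4th instar mean by a median of 0.18. Over the 12 brighter in prothoracic gland it differed by a median of -2.96, and 11 of the 12 were at least 2-fold lower in the 5th instar. Several of these probes can measure the same transcript, so the counts are not of separate transcripts. Replicate 1, on the slide of the prothoracic gland, exceeded replicate 2 in 13 of the 13 and in 11 of the 12, by medians of 0.37 and 1.03. The 4th instar CC-CA arrays helped to choose these probes, and the 5th instar array did not. The same counts over all tested probes were not taken, so those by stage and by replicate are only described. With replicate 1 alone 60 probes had a 2-fold margin, and with replicate 2 alone 40 had. The part of neighbouring tissue or of the shared slide in this set was not tested.

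Probes of the caL clones made up 56% of the 25, against 59.3% of the probes tested. With the 5th instar array pooled into the CC-CA group, or with a filter that asked for all 12 arrays well above background, no probe was called, although 40 and 5 had a 2-fold margin. Of the 44 probes with a 2-fold margin, 5 had all 8 other tissues well above background.

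**Figure D5:**
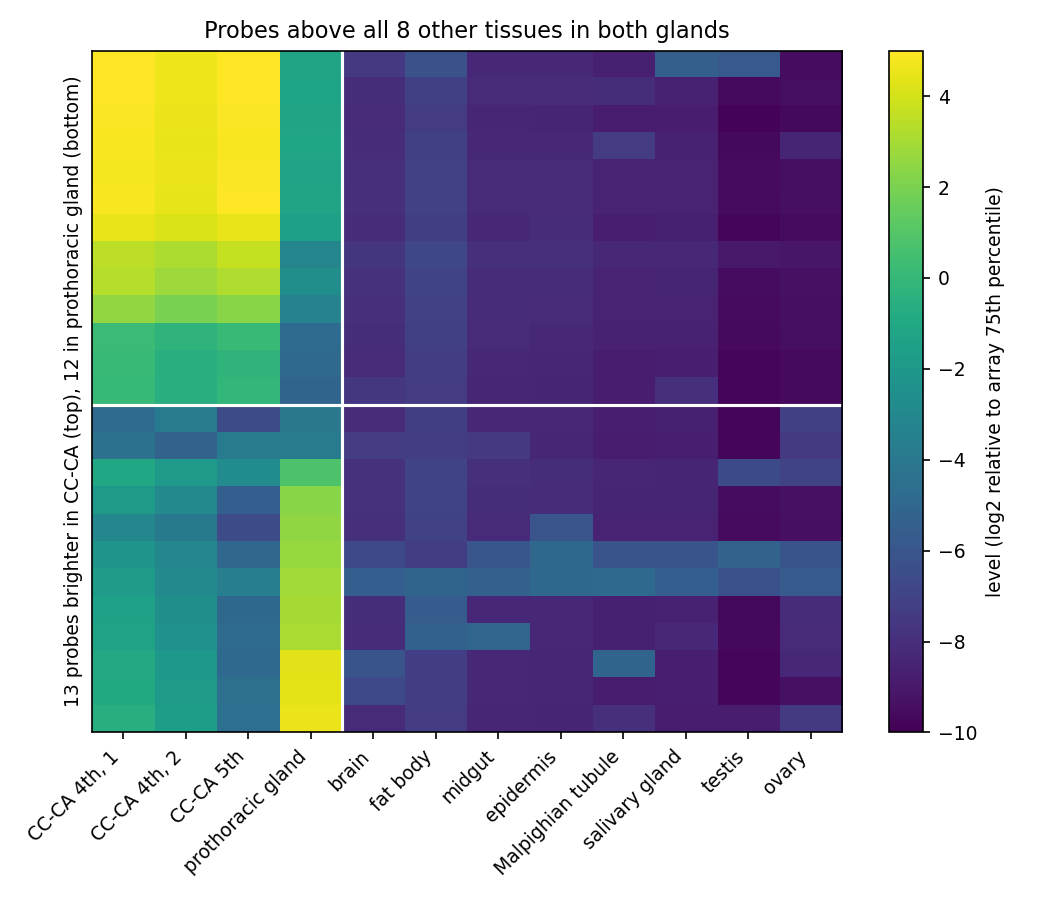
Levels (colour, log2 relative to the array's 75th percentile) of the 25 probes that both glands held above the 8 other tissues, one row a probe, with the CC-CA and prothoracic gland arrays left of the white line. The upper 13 rows are brighter on all 3 CC-CA arrays than in prothoracic gland, and the lower 12 are brighter in prothoracic gland than on the 4th instar CC-CA mean.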

How the data were processed

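Each array was read from its scanner file. Per the file headers, the scanner software, Agilent Feature Extraction 9.5.3.1, wrote a background-subtracted processed signal for each spot, an intensity that the authors deposited without scaling between arrays. Control spots, 1417 of 45220, and outlier spots were removed. Repeated spots of a probe were averaged, and 224 of 42564 probes lacked a value on some array and were dropped. The authors' deposited value table also gives linear intensity. Each column equalled the processed signal over a single constant, 68.3 and 64.4 for the CC-CA arrays and 31.0 for prothoracic gland, with column medians of 10.4, 10.6 and 9.43. The meaning of this constant, and with it the centring of the columns, is unknown here.

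Differences were tested in R 4.3.3 with limma 3.58.1 (lmFit and eBayes) on log2 values, with Benjamini-Hochberg adjustment over all tested probes, after a check on simulated data. Files were read with the R package data.table, version 1.17.8, and plots were drawn with matplotlib 3.10.9. The transcripts above all other tissues came from a fit of 11 group means to 12 arrays. A gene was represented by the probe with the highest mean over the 12 arrays. No tested named gene was marked saturated in either gland. Named were all tested juvenile hormone, neuropeptide and receptor genes that were called or well above background in both glands, the 8 cuticular genes with the largest called rise and up to 8 with the largest called fall, tissue markers, and the leading unnamed sequences. One gene that this rule names is not reported here. The members and gene lists were chosen with earlier results of these data known. Gene names are those of the array design. All 6 full transcript accessions matched the RefSeq gene table, and none of the BGIBMGA gene models did. A block for slide left 0 residual degrees of freedom, so within-slide values are given instead. The planned normexp correction named a mean signal column, and the median signal, with an offset of 50, took its place. The number of arrays limits the precision.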

Additional observations from a re-analysis of the deposited data

How the results depend on the processing

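The counts of calls and the differences of the named genes were recomputed under 12 other settings, for each gene in those whose filter it passed, besides leaving out each CC-CA array. The marker sums, the comparison of cuticular genes with epidermis and the shares by highest tissue were not. Values are given where they left the range within 1.5 times the count reported, or the spread between the CC-CA replicates. The cause of these changes was not tested, except that filters and the omitted clone set change how many probes are tested. In the deposited table, 8297 probes were lower in CC-CA, higher probes made up 38.4% of the calls, the median difference was -0.70, 2 neuropeptide genes were lower, and 76 probes had a 2-fold margin in both glands. Quantile normalisation gave 55.7%, -0.42 and 2 lower neuropeptide genes. The percentile over probes detected on all arrays gave 76.4% and -0.074. With normexp correction, 9 neuropeptide genes were higher and 0 lower, 5 receptor genes were higher and 2 lower, 14 probes were called above all other tissues in both glands, and 27 had the margin. With a floor under dim signals, 0 neuropeptide genes were lower.

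Without a filter on dim probes, 1312 probes were lower, 79.9% of called probes were higher, the median was -0.34, and 12 probes were called in both glands. The strict filter asked for probes well above background on all 3 gland arrays. For the set above all other tissues in both glands it asked for all 12 arrays. With this filter, 3480 probes were higher, 55.0% of called probes were higher, and the median was -0.32. It left 3 neuropeptide genes higher and 0 lower, 4 receptor genes higher and 2 lower, 37 cuticular genes higher and 0 lower, and 0 probes called in both glands, 5 with the margin. Moderation with a trend left 2 lower receptor genes. A log2 threshold of 2 left 868 lower probes, a share of 84.1%, 2 lower receptor genes and 1 lower gene of juvenile hormone breakdown and transport. Without the caL clones, 2480 probes were higher, 1080 lower, 2 receptor genes lower, 11 probes called in both glands and 15 with the margin.

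With the 5th instar CC-CA pooled, 2397 probes were higher and 452 lower, a share of 84.1%. Higher and lower were 7 and 0 neuropeptide genes, 1 and 1 receptor genes, 11 and 3 cuticular genes, and 0 and 0 genes of juvenile hormone breakdown and transport, and 0 probes were called in both glands. Of the 105 called named genes, 81 lost their call in this setting. The call was kept by 23 in every alternative that tested them, and by 64 in every one besides this setting. Genes not well above background on all 3 gland arrays were not tested under the strict filter.

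Leaving out 1 CC-CA array leaves no residual degree of freedom, so there are no calls. Between 6590 and 6713 probes were then at least 2-fold higher and between 4132 and 5618 lower, the median ran from -0.28 to -0.19, and 40 to 60 probes had the margin in both glands. No called gene changed sign when either CC-CA array was left out.

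The sign of 13 named genes turned in some setting. Of these, BNGR-A17 was called as reported and the others were not. Quantile normalisation turned Ash1 (-0.056), BAR (-0.0022), BmorCPR17 (-0.085), BmorCPR86 (-0.86), BNGR-B1 (-0.37), the ITG-containing peptide (-0.077) and LGR (-0.51). The deposited table turned BmorCPR86 (-0.39) and LGR (-0.32). Normexp turned BmorCPH16 (-0.18), BmorCPR86 (-0.32) and BNGR-B1 (-0.17). The floor turned BmorCPH16 (-0.027) and BNGR-A17 (-0.13). The percentile over detected probes turned BNGR-A27 (0.074), jhbp-wds30639 (0.071) and trh (0.12). Pooling the 5th instar turned BmorCPR86 (-0.23) and SIFamide (0.65).

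No paired analysis was possible because the CC-CA and the prothoracic gland share only 1 replicate number. Signal over background limits all bounds.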
